A study of Mus musculus with 21 samples.

Results

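The miR-106b-25 and miR-106a-363 clusters are the paralogs of the miR-17-92 cluster, and 9 of their mature miRNAs were followed through development of the mouse cochlea, the hearing organ, and the superior olivary complex (SOC), an auditory brainstem centre. The members were taken by name from the table of 1647 miRNAs, namely mmu-miR-106b-5p, mmu-miR-106b-3p, mmu-miR-93-5p, mmu-miR-93-3p and mmu-miR-25-3p (5 products of miR-106b-25) and mmu-miR-106a-5p, mmu-miR-18b-5p, mmu-miR-20b-5p and mmu-miR-363-3p (4 products of miR-106a-363). Small RNA sequencing had been done on untreated wild-type mice of both sexes at embryonic day 16 (E16), at birth (P0) and at postnatal day 16 (P16), with 2, 4 and 4 cochlear libraries (C57BL/6JOlaHsd) and 4, 4 and 3 SOC libraries (C57Bl6/J) in that order. The prefix mmu-, for mouse, is left out from here on. The cochlear tissue was the dissected sensory epithelium, called cochlea here. Each library was made from tissue pooled from several animals, so the p-values measure the spread between pools. RNA isolation and library kits differed between the organs (Direct-zol and SMARTer smRNA-Seq for the cochlea, innuPREP miRNA and TruSeq Small RNA for the SOC). Organ and kit therefore cannot be told apart. Between the organs only changes over time were tested, and levels or shares of both organs are set side by side with that limit.

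Mature miRNAs guide the silencing complex to messenger RNAs through their seed, bases 2 to 8 from the 5′ end, and miRNAs with one seed share most of their predicted targets. The miR-17 family and its paralog clusters are known as promoters of cell cycle progression and cell survival, with Cdkn1a, E2f1 and Bcl2l11 among the targets described for their members. The miR-106b-25 hairpins are carried in an intron of Mcm7, a subunit of the replicative helicase, whereas miR-106a-363 is a separate X-linked transcript.

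In the GRCm38.p6 annotation miR-106b-25 spans 498 bases at chr5:138165321-138165818 on the minus strand, and its 3 hairpins all lie in intron 13 of the transcript Mcm7-201. The miR-106a-363 cluster spans 875 bases at chrX:52741693-52742567, also on the minus strand, and holds 6 hairpins. The hairpins of miR-19b-3p and miR-92a-3p in this cluster give the same mature sequence as a locus of miR-17-92 on chromosome 14, so these products were not counted as members. All 9 members were matched by name to the RefSeq sequences. They are given from 5′ to 3′ with the seed in capitals, because the seed decides which members of the 2 clusters can be set side by side. The first 4 carry the seed AAAGUGC, which 7 mouse mature miRNAs share.
mmu-miR-106b-5p: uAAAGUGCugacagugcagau
mmu-miR-93-5p: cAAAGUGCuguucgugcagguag
mmu-miR-106a-5p: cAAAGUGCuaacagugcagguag
mmu-miR-20b-5p: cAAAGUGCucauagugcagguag
The pair miR-25-3p and miR-363-3p carries the seed AUUGCAC of miR-92a-3p.
mmu-miR-25-3p: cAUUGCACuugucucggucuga
mmu-miR-363-3p: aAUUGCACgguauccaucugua
miR-18b-5p shares AAGGUGC with miR-18a-5p alone, and no other mouse mature miRNA in the RefSeq table has the seeds of miR-106b-3p and miR-93-3p, the 3p arms of their hairpins.
mmu-miR-18b-5p: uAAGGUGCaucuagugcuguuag
mmu-miR-106b-3p: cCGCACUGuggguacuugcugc
mmu-miR-93-3p: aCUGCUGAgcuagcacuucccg

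Outside the seed the matched members differ, with 3 single-base edits between miR-93-5p and miR-20b-5p, 5 between miR-106b-5p and miR-106a-5p and 7 between miR-25-3p and miR-363-3p. Of the miR-106a-363 members, 3 are closest to other miRNAs than those of miR-106b-25. miR-106a-5p is 1 edit from miR-17-5p, miR-20b-5p is 2 edits each from miR-106a-5p, miR-17-5p and miR-20a-5p, and miR-18b-5p is 2 edits from miR-18a-5p. How reads that match several miRNAs were assigned is not given in the sources used here, so the counts of these 3 members are uncertain. No other mature miRNA lies within 2 edits of miR-363-3p or of any of the 5 products of miR-106b-25.

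Total counts ran from 124400 to 447419 in the cochlea and from 8309669 to 18053698 in the SOC. The SOC libraries fell into 3 sets that the labels do not name. In set A (E16 and P0 replicates 2 and 3) miR-99b-5p took over 10% of the counts, in set C (P0 replicate 4, P16 replicates 2 and 3) miR-191-5p took under 1%, and the remaining 4 libraries (E16 replicates 1 and 4, P0 replicate 1, P16 replicate 1) are called set B. In a model with stage and set, 381 of 694 miRNAs (54.9%) differed between sets C and B. The sets were drawn from these same counts, so such differences describe the sets and are no independent support for them. Among the members, set C was above set B by 2.46 log2 units for miR-25-3p, 2.24 for miR-363-3p, 1.83 for miR-18b-5p, 1.72 for miR-93-5p and 1.31 for miR-106b-5p (FDR 0.00876 or lower, edgeR). Set A was above set B by 2.15 for miR-18b-5p and 0.74 for miR-106b-3p. The SOC changes of the members are given from a fit on stage alone and from a fit on stage and set (the set-adjusted fit). Set A had no P16 library and set C no E16 library. Only set B held all 3 stages, with P16 replicate 1 as its only P16 library. The set-adjusted changes to P16 therefore rest on few libraries and on set offsets taken as equal at every stage. Levels are TMM-normalized CPM, that is counts scaled to library size. A DE miRNA had a false discovery rate (FDR) under 0.05 over all miRNAs of the organ, changed more than 1.5-fold and had separate ranges at the 2 stages. The last criterion was dropped in the set-adjusted fit, because replicates of different sets are not comparable.

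In the cochlea, miR-106b-25 held 10.5% and 12.3% of all counts in the E16 libraries and was lower at each later stage. Its 5 members summed to 86931 ± 7875 CPM in the E16 libraries (SD, n = 2), to 25122 ± 1737 in those of P0 (n = 4) and to 11654 ± 3589 in those of P16 (n = 4). miR-25-3p, for which the proapoptotic Bcl2l11 is a described target, made up most of this and was the second most abundant of all miRNAs in both E16 libraries. Its level was 66768 and 62388 CPM at E16, then 18837, 16685, 18516 and 19340 at P0, and 14051, 6128, 8635 and 8323 at P16. The 3 stages did not overlap. miR-25-3p fell by 1.82 ± 0.39 (log2, SE) between E16 and P0 (FDR 5.0e-05) and fell by 2.80 ± 0.39 between E16 and P16 (FDR 4.0e-11). The step from P0 to P16 was smaller, -0.98 ± 0.34 (FDR 0.0284), and this call was lost when any of 6 of the 10 libraries was left out (FDR 0.0569 to 0.0850).

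miR-93-5p, the miR-17 family member of this cluster with the most counts, had 23972 and 16884 CPM at E16, 6400, 4508, 4729 and 5093 at P0, and 1929, 1051, 2438 and 2202 at P16. Again the stages were separate. The log2 changes were -1.98 ± 0.38 from E16 to P0 (FDR 4.9e-06), -3.42 ± 0.39 from E16 to P16 (FDR 2.3e-16) and -1.44 ± 0.33 from P0 to P16 (FDR 2.5e-04). The 3p arms of Mir106b and Mir93 were at lower levels and were lowest at P16. miR-106b-3p had 894 and 984 CPM at E16, 947, 1101, 983 and 1053 at P0, and 301, 420, 146 and 223 at P16. miR-93-3p had 807 and 982 CPM at E16, 508, 473, 572 and 671 at P0, and 214, 265, 139 and 89.3 at P16. Between E16 and P0 neither passed the test, with 0.12 ± 0.42 for miR-106b-3p (FDR 0.878, and -0.34 when scaled to library totals) and -0.69 ± 0.42 for miR-93-3p (FDR 0.217). Between P0 and P16 both fell, with -1.91 ± 0.37 for miR-106b-3p (FDR 5.3e-06) and -1.65 ± 0.38 for miR-93-3p (FDR 2.6e-04).

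**Figure D1:**
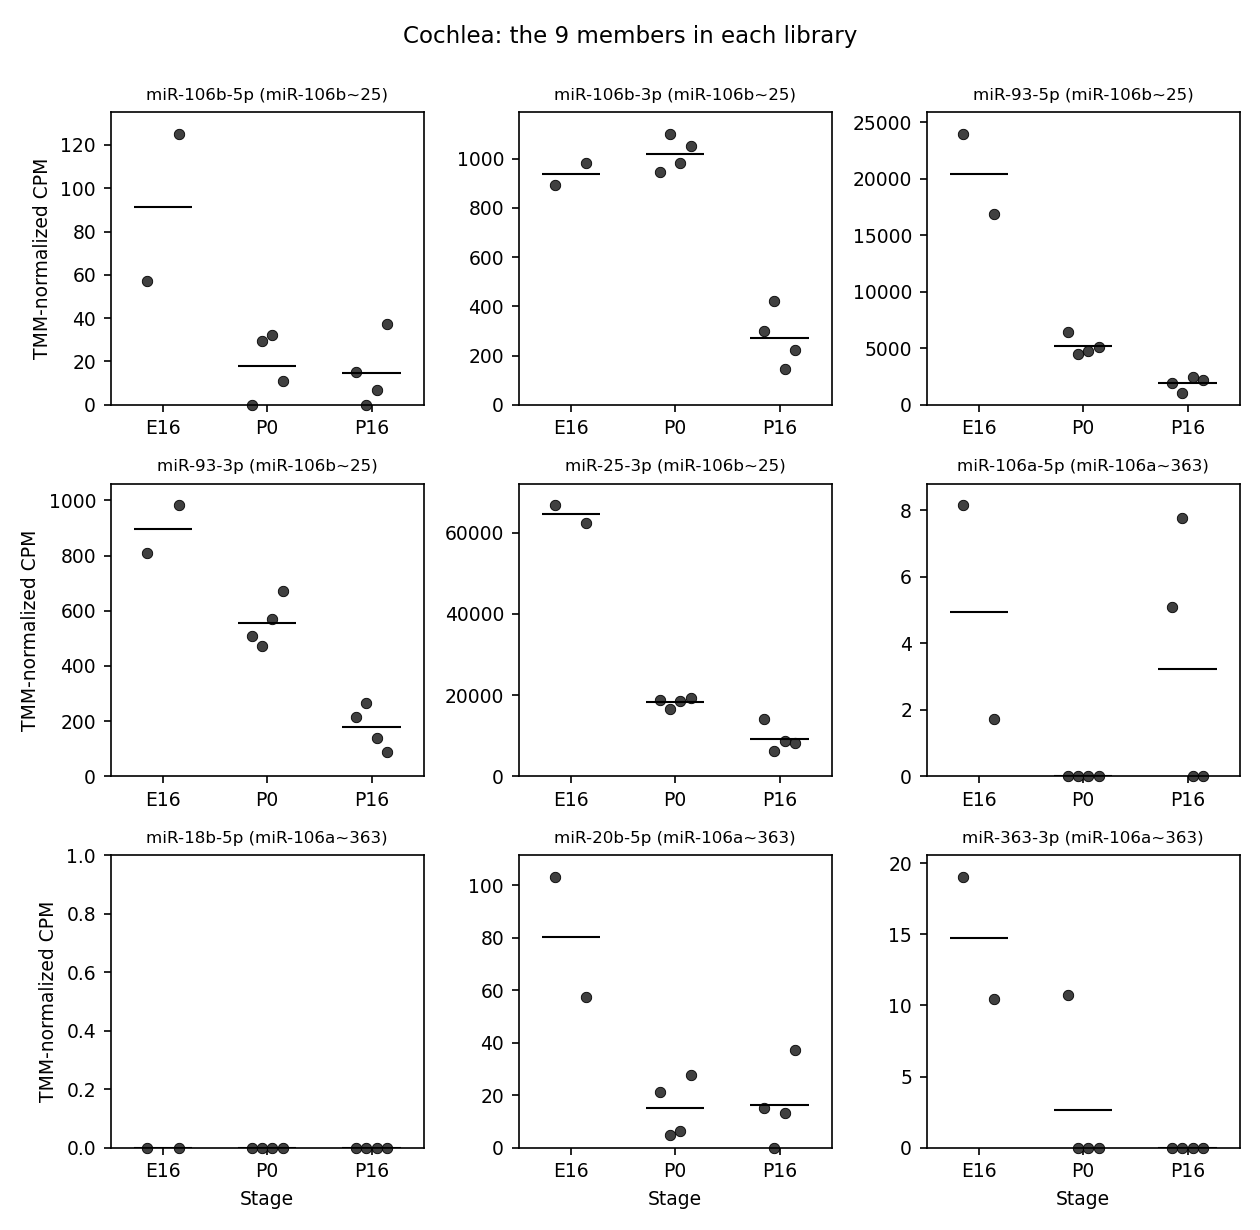
Level of each member (TMM-normalized CPM, vertical axis from 0 and scaled for each panel) in the 2 E16, 4 P0 and 4 P16 cochlear libraries, with 1 point per library and a line at the mean. miR-25-3p and miR-93-5p stepped down at each stage, the 3p arms of Mir106b and Mir93 were lowest at P16, and the members of miR-106a-363 rested on few counts.

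miR-106b-5p, for which the cell cycle inhibitor Cdkn1a is a described target, was far less counted in the cochlea than the other arm of its own hairpin. It had 21 and 72 counts at E16 (57.1 and 125 CPM), 0, 6, 5 and 2 at P0 and 3, 0, 1 and 5 at P16. The E16 libraries lay above all later ones, with log2 changes of -2.32 ± 0.76 at P0 (FDR 0.0126) and -2.59 ± 0.80 at P16 (FDR 0.00548). The call at P0 was lost without E16 replicate 2 (FDR 0.369) or without P0 replicate 1 (FDR 0.0653), and that at P16 without E16 replicate 2 (FDR 0.235). DESeq2 called neither (adjusted p = 0.105 and 0.0706).

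The miR-106a-363 cluster was at or near the detection limit in the cochlea, where its sum was 100 ± 43.1 CPM over the 2 libraries of E16, 17.8 ± 14.1 over the 4 of P0 and 19.7 ± 12.8 over the 4 of P16. miR-20b-5p gave most of these reads, with 38 and 33 counts at E16 (103 and 57.4 CPM), 4, 1, 1 and 5 at P0 and 3, 0, 2 and 5 at P16. It fell by 2.36 ± 0.79 from E16 to P0 (FDR 0.0149) and fell by 2.24 ± 0.81 from E16 to P16 (FDR 0.0204). Without E16 replicate 1 these calls were lost (FDR 0.298 and 0.277). The P0 call was also lost without P0 replicate 2 (FDR 0.0675) or 3 (FDR 0.0557), the P16 call without P16 replicate 2 (FDR 0.0655), and DESeq2 called neither (adjusted p = 0.0584 and 0.0813).

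miR-363-3p had 7 and 6 counts at E16, 2, 0, 0 and 0 at P0 and none in the 4 P16 libraries. Against a floor of 3 counts over the group it was, per TMM-scaled library size, at least 2.80-fold lower at P16 than at E16 (3.99-fold per raw library size), and the pooled ratio of E16 to P0 was 5.02 (95% exact counting interval 1.14 to 45.8). It passed the test at P16 (FDR 0.0339), with a fit that rests on a group at 0, and the call was lost without either E16 library or any P16 library (FDR 0.0575 to 0.160), with DESeq2 (adjusted p = 0.416) and with the replicate number as a block (FDR 0.339). miR-106a-5p had 3 and 1 counts at E16, none at P0 and 1, 1, 0 and 0 at P16, so no fold was computed. miR-18b-5p had no count in any cochlear library, which allows up to 4.15 CPM at E16, 3.92 at P0 and 4.50 at P16 (3 counts over the libraries of a stage, before TMM scaling).

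All members but miR-18b-5p passed the filter on low counts in the cochlea, and all but miR-106a-5p in the SOC, 8 of 9 in each organ. By the full criteria the cochlea had 3 members of miR-106b-25 and 1 of miR-106a-363 lower at P0 than at E16, where 24.4% of all 896 tested miRNAs were DE and 16.6% were lower. At P16 vs E16 all 5 of miR-106b-25 and 2 of miR-106a-363 were lower, with 29.6% of all DE and 18.6% lower. At P16 vs P0 the 4 calls were miR-106b-3p, miR-93-5p, miR-93-3p and miR-25-3p, with 10.5% of all DE and 6.58% lower. No member was called higher, beside 7.81%, 10.9% and 3.91% of all miRNAs in the order of these comparisons. Scaling to library totals instead of TMM put the median log2 fold change of all miRNAs at -0.38 for P0 vs E16 and -0.58 for P16 vs E16, where TMM gave 0 and -0.09, and the called members were lower under both.

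Levels of marker miRNAs changed over the same stages. In the cochlea the 3 miRNAs of the hair cell list (miR-183-5p, miR-96-5p and miR-182-5p, all detected) summed to 52240 to 55891 CPM at E16, 33753 to 38017 at P0 and 16693 to 38412 at P16. The same 3 were also counted in the SOC, so their sum is not particular to hair cells. Of the 8 blood and immune miRNAs listed, 7 were in the table, and their sum ran from 2107 to 2621 CPM at E16, 2082 to 3148 at P0 and 6329 to 29470 at P16, although the red cell miRNAs miR-451a and miR-144-3p were at 0 at P0 and P16. The 7 epithelial miRNAs summed to 14713 to 22593 CPM at E16, 5660 to 7808 at P0 and 2499 to 7054 at P16. Of 5 mesenchymal miRNAs 4 were in the table, with sums of 47621 to 50791, 52798 to 77676 and 14585 to 27438 CPM by stage. The muscle list, with 3 of 4 in the table and miR-133a-3p at 0, summed to 473 to 549, 218 to 478 and 1098 to 4297 CPM, and the 2 oligodendrocyte miRNAs to 13.9 to 32.6, 6.42 to 66.5 and 296 to 511 CPM. The 5 neuronal miRNAs summed to 2857 to 3352, 649 to 1236 and 1090 to 1607 CPM. Their part in the changes of the members was not tested, and in bulk tissue fewer cells with a miRNA and less of it per cell cannot be told apart.

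In the SOC, miR-25-3p and miR-93-5p were again the most counted members, but by stage alone neither passed the test in any comparison. miR-25-3p had 8818, 10203, 9518 and 8368 CPM at E16, 3248, 4344, 3782 and 24699 at P0, and 1758, 6188 and 8564 at P16. The P0 library of set C was above every E16 library and the other 3 P0 libraries were below them. At P16 the set B library was the lowest and both set C libraries were higher. By stage alone the differences were -0.03 ± 0.67 at P0 vs E16 (FDR 0.992), -0.75 ± 0.74 at P16 vs E16 (FDR 0.431) and -0.71 ± 0.74 at P16 vs P0 (FDR 0.525). In the set-adjusted fit they were -1.21 (FDR 6.5e-04), -2.57 (FDR 2.7e-06) and -1.35 (FDR 4.7e-04), and in set B alone the single P16 library was 2.27 log2 units below the 2 E16 libraries.

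miR-93-5p followed the same pattern, with 3710, 2946, 3508 and 2631 CPM at E16, 1832, 1858, 1630 and 7385 at P0, and 1614, 3546 and 5008 at P16. By stage alone its change from E16 to P16 was 0.08 ± 0.58 (FDR 0.921), while the set-adjusted fit gave -1.24 (FDR 0.00165). The direction of this member in the SOC thus differed between the fits. From E16 to P0 the set-adjusted fit gave -0.76 (FDR 0.0148), and from P0 to P16 -0.48 (FDR 0.126).

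**Figure D2:**
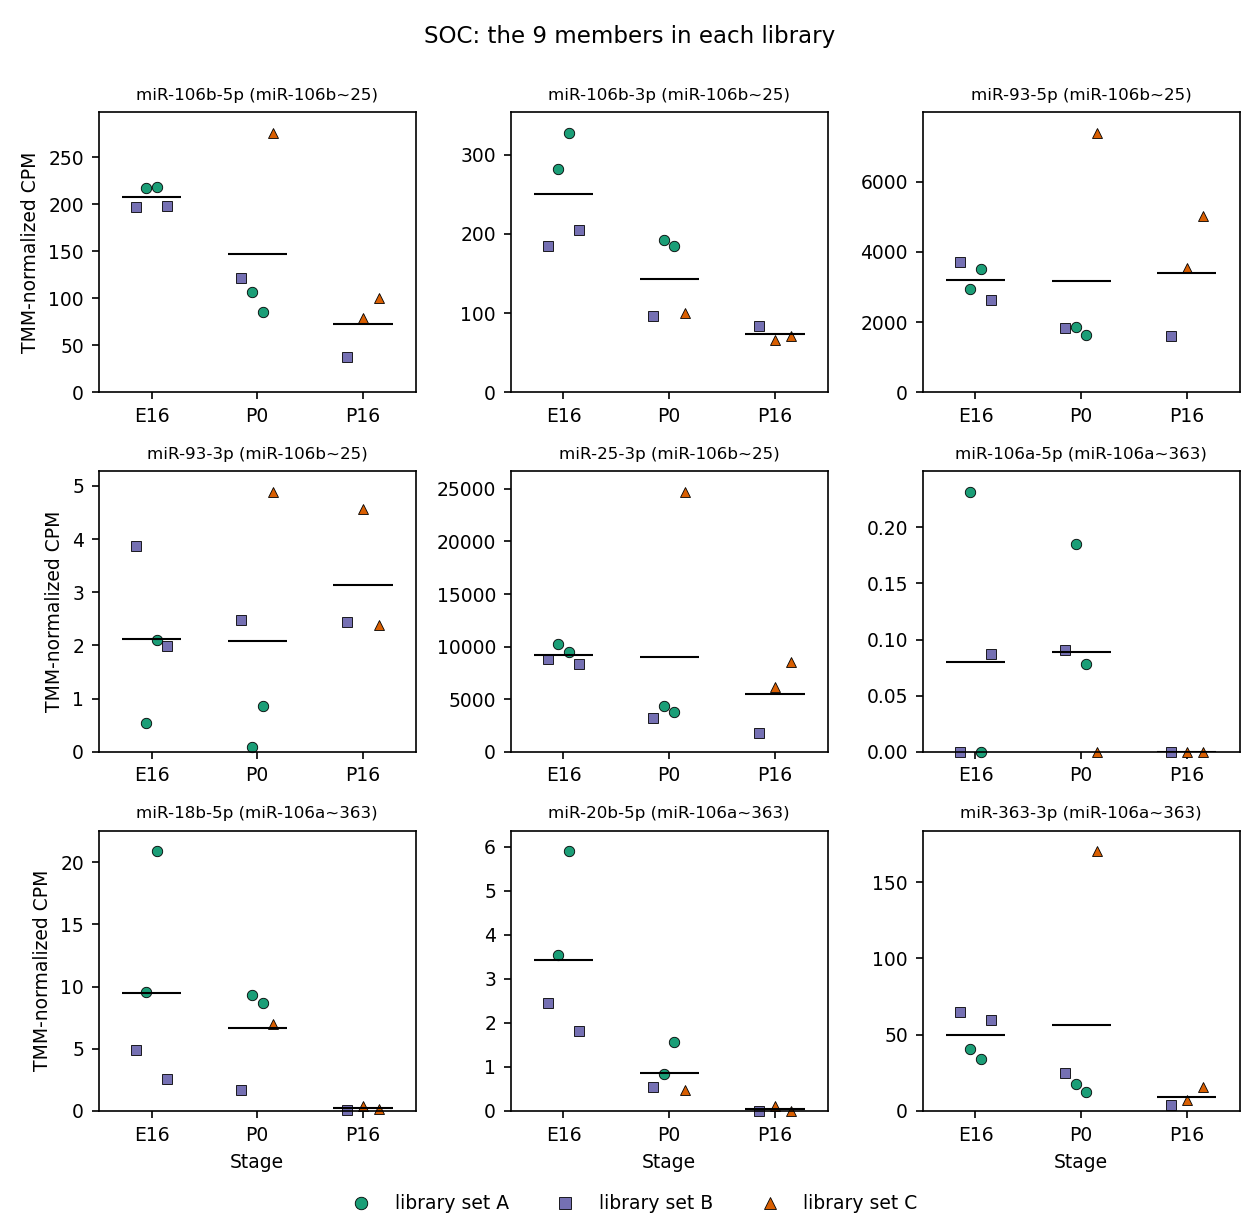
Level of each member (TMM-normalized CPM, vertical axis from 0 and scaled for each panel) in the 4 E16, 4 P0 and 3 P16 SOC libraries, with 1 point per library, a line at the mean and the marker giving the library set. The set C library at P0 stood above the others for miR-25-3p, miR-93-5p and miR-363-3p, and miR-18b-5p and miR-20b-5p were close to 0 at P16 in sets B and C.

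Both Mir106b arms were called lower by stage alone at P16. miR-106b-5p had 197, 217, 219 and 198 CPM at E16, 122, 106.5, 86.0 and 276 at P0, and 37.4, 79.2 and 101 at P16. It fell by 1.52 ± 0.49 from E16 to P16 (FDR 0.0255), and the set-adjusted change was -2.54 (FDR 3.0e-06). The call by stage alone was lost without E16 replicate 2 or 3 or P16 replicate 1 or 2 (FDR 0.0521 to 0.0726). miR-106b-3p had 185, 283, 328 and 205 CPM at E16, 96.4, 192, 185 and 100 at P0, and 84.0, 66.5 and 71.0 at P16, a log2 change of -1.76 ± 0.41 from E16 to P16 (FDR 0.00527) that was -1.23 after set adjustment (FDR 7.0e-04). For both arms the 3 P16 libraries had less than any of E16. miR-93-3p had between 0.0926 and 4.88 CPM over the 11 SOC libraries and passed no test in either fit.

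The 3 members of miR-106a-363 that could be tested in the SOC all fell from E16 to P16. miR-20b-5p, for which Hif1a and Vegfa are described targets, had 42, 46, 59 and 21 counts at E16 (2.46, 3.55, 5.90 and 1.82 CPM), 12, 9, 20 and 4 at P0 (0.543, 0.833, 1.57 and 0.465 CPM), and 0, 1 and 0 at P16. The 3 stages did not overlap. The pooled ratio of E16 to P16 per TMM-scaled library size was 99.4 (95% exact counting interval 17.6 to 3951) and that of P0 to P16 was 25.3 (4.31 to 1021), and edgeR called both by stage alone (FDR 5.4e-04 and 0.0135) and after set adjustment (FDR 4.0e-04 and 0.0140). The second call was lost without P16 replicate 3 (FDR 0.0572). From E16 to P0 the change was -1.99 ± 0.61 (FDR 0.0705). It passed the test after set adjustment (FDR 0.00647), with the replicate number as a block (-2.02, FDR 0.0489) and with DESeq2 (-1.99, adjusted p = 0.0114).

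miR-18b-5p, the partner of miR-18a-5p by seed, was counted in the SOC although it was at 0 in the shallower cochlear libraries. It had 84, 124, 209 and 30 counts at E16 (4.92, 9.57, 20.9 and 2.61 CPM), 37, 101, 111 and 60 at P0 (1.67, 9.35, 8.70 and 6.98 CPM), and 1, 4 and 2 at P16 (0.0941, 0.424 and 0.191 CPM). E16 and P0 overlapped, with the set A libraries the highest at both stages, and P16 lay below every earlier library. miR-18b-5p fell by 5.29 ± 0.98 from E16 to P16 (FDR 0.00146) and fell by 4.78 ± 0.96 from P0 to P16 (FDR 0.00697). After set adjustment these were -5.31 (FDR 7.8e-06) and -4.42 (FDR 6.4e-05).

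miR-363-3p was the most counted member of this cluster in the SOC, with 64.9, 40.8, 33.8 and 59.7 CPM at E16, 24.7, 17.8, 12.4 and 170 at P0, and 3.76, 7.32 and 15.6 at P16. Its P0 library of set C was again the highest of all. From E16 to P16 it fell by 2.48 ± 0.90 (FDR 0.0416), a call that was lost without any E16 library or without P16 replicate 1 or 2 (FDR 0.0568 to 0.117), and the set-adjusted change was -4.54 (FDR 7.6e-07). From P0 to P16 the values were -2.66 ± 0.91 (FDR 0.0598) and -3.37 (FDR 1.4e-05) in the same order, and from E16 to P0 0.17 ± 0.76 (FDR 0.930) and -1.17 (FDR 0.00849). miR-106a-5p had 0 to 3 counts in each SOC library and none at P16, where 3 counts over the group would be 0.0965 CPM before TMM scaling, and no fold was computed.

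**Figure D3:**
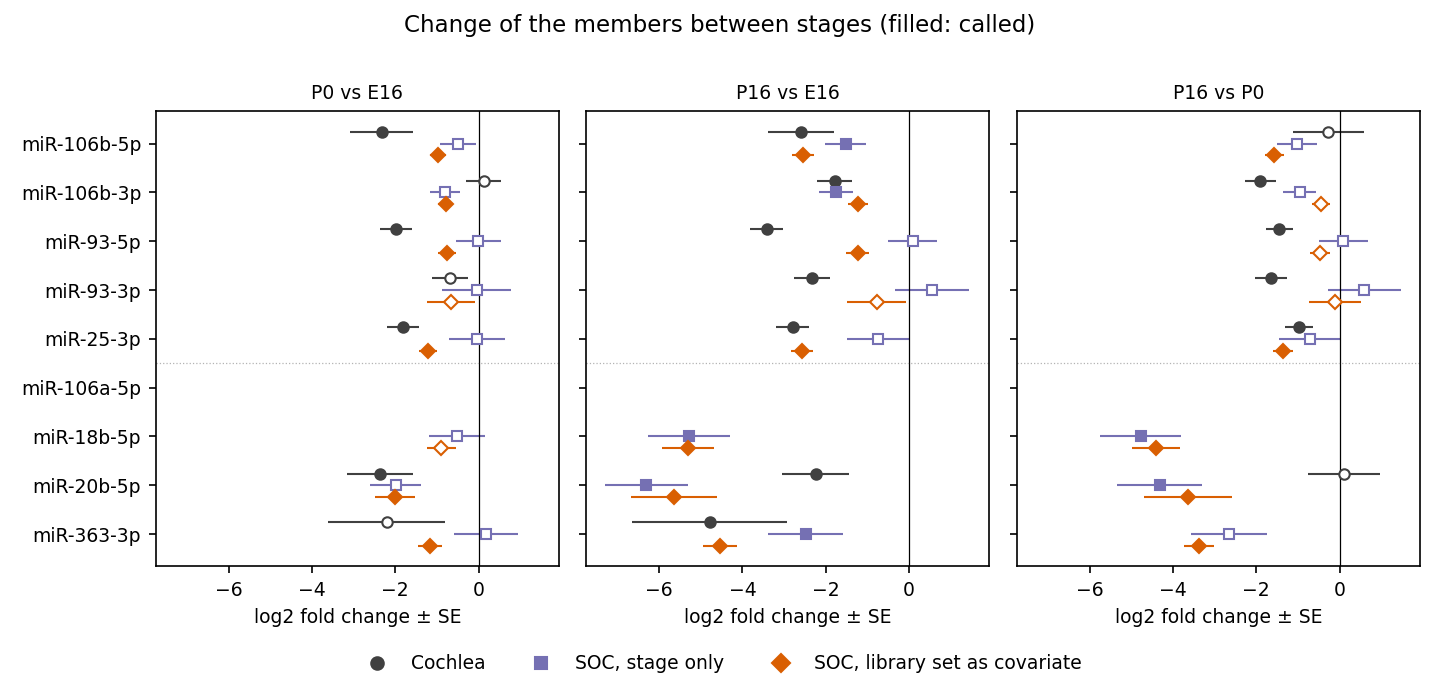
Change of each member between stages (log2 fold change ± SE, horizontal axis) in the cochlea, in the SOC by stage alone and in the SOC after adjustment for the library set, with filled symbols for called members and no symbol where both groups were at 3 counts or fewer or the miRNA was not tested. The fitted values of miR-363-3p at P16 vs E16 in the cochlea and of miR-20b-5p at P16 in the SOC set a group of 0 or 1 counts against a higher one and are not measures of size.

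By the full criteria no member was DE in the SOC at P0 vs E16, where 6.63% of all 694 tested miRNAs were and 4.18% were lower. At an unadjusted p under 0.05, 2 of the 8 members tested passed, and miR-20b-5p was called by DESeq2 and by the paired fit with the replicate number as a block (FDR 0.0489). At P16 vs E16, 2 members of miR-106b-25 and 3 of miR-106a-363 were lower, with 41.2% of all miRNAs DE and 20% lower. At P16 vs P0 none of miR-106b-25 (1 at an unadjusted p under 0.05, miR-106b-3p with DESeq2) and 2 of miR-106a-363 were lower, with 16.1% DE and 8.07% lower. In the set-adjusted fit 6 of the 8 were lower at P0 vs E16, 7 at P16 vs E16 and 5 at P16 vs P0. Beside these, 14%, 27.4% and 23.3% of all miRNAs were lower, and 29.3%, 53.6% and 41.1% were DE in either direction. When each SOC library was left out in turn these counts ran from 5 to 7, stayed at 7 and ran from 4 to 5. No member was called higher in either fit, beside 2.45%, 21.2% and 8.07% of all miRNAs by stage alone and 15.3%, 26.2% and 17.7% after set adjustment.

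The hair cell list is not a measure of hair cells in the SOC, where the study describes miR-96 and miR-182 as repressed during maturation. Its 3 miRNAs summed to 85041 to 164668 CPM at E16 in the SOC, 4392 to 28713 at P0 and 521 to 3502 at P16. The 5 neuronal miRNAs, all detected, summed to 39641 to 117929, 59297 to 110533 and 43932 to 55556 CPM, and the 2 oligodendrocyte miRNAs to 376 to 436, 174 to 434 and 2574 to 7748 CPM. The blood list, of which 7 were detected, summed to 174 to 236, 196 to 380 and 826 to 944 CPM. The epithelial list summed to 926 to 1963, 56.2 to 195 and 49.7 to 146 CPM, the muscle list to 113 to 292 at E16 and at most 22.7 and 24.2 CPM later, and the mesenchymal list to 15781 to 24926, 13756 to 19228 and 18664 to 25375 CPM. Their part in the changes of the members was not tested.

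The contrast between the clusters was followed as a ratio within each library, with 0.5 counts added to each sum. Such a ratio takes no scaling factor, but the added 0.5 makes it depend on depth where counts are few. In the SOC the log2 ratio of miR-106b-25 to miR-106a-363 was 7.68 ± 0.25 for E16 (SD, n = 4), 7.74 ± 0.21 for P0 (n = 4) and 9.95 ± 0.29 for P16 (n = 3). As folds of the mean these were 206, 213 and 991. The P16 libraries lay between 9.76 and 10.3 and all earlier ones between 7.47 and 7.98, whatever their set. The change from E16 to P16 was 2.27, or 2.41 after set adjustment. The library of set C at P0, which stood out for miR-25-3p and miR-363-3p singly, had a ratio of 7.51 and was not apart here. As a sum over chosen members the ratio was not tested.

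In the cochlea the same ratio was 9.81 ± 0.51 (n = 2), 10.6 ± 1.05 (n = 4) and 9.09 ± 0.69 (n = 4), on only 88, 13 and 12 counts of miR-106a-363 over the libraries of each stage. E16 overlapped with both later stages. The 4 P16 libraries, at 8.05 to 9.49, lay below the 4 P0 libraries, at 9.58 to 11.6, and single counts decide these values.

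**Figure D4:**
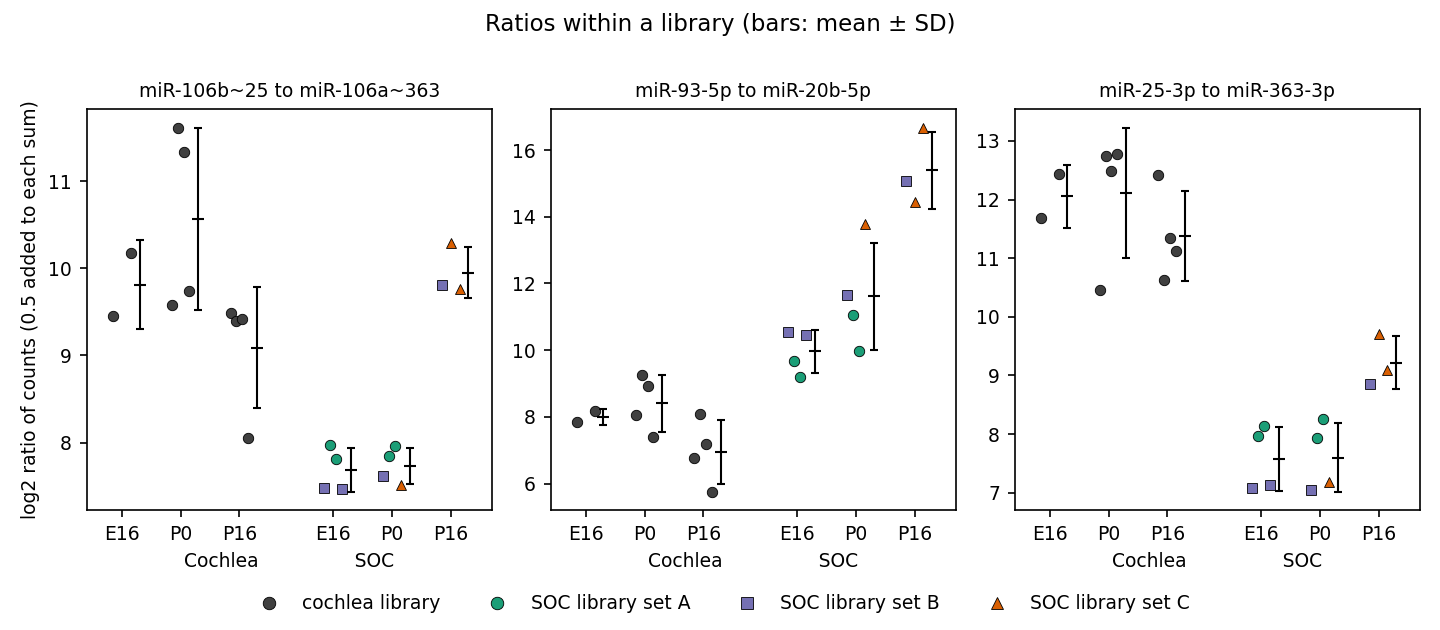
Ratio of miR-106b-25 to miR-106a-363 and of the 2 matched pairs with the larger counts (log2 of counts with 0.5 added, vertical axis not from 0) in each library of the cochlea and the SOC, with bars for the mean ± SD and markers for the SOC library set. In the SOC the P16 libraries lay above all E16 and P0 libraries in all 3 panels, and in the cochlea the miR-93-5p to miR-20b-5p and miR-25-3p to miR-363-3p ratios overlapped between stages.

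The matched pairs were tested across the libraries of 2 stages with an exact two-sided permutation test, 18 tests in all. In the SOC the log2 ratio of miR-93-5p to miR-20b-5p averaged 9.97 ± 0.64 for E16, 11.6 ± 1.60 for P0 and 15.4 ± 1.15 for P16, on 168, 45 and 1 counts of miR-20b-5p. The difference of 5.42 between E16 and P16 had p = 0.0286, the smallest this design allows (adjusted p = 0.171), and that of 3.78 between P0 and P16 had p = 0.0571 in the exact permutation test (adjusted p = 0.257). After set adjustment the first was 3.90. Both rest on the single count at P16, being 2.71 and 1.47 with 5 counts added in place of 0.5 and 1.77 and 0.97 with SOC counts thinned to cochlear depth. miR-25-3p against miR-363-3p, the pair with the miR-92 seed, averaged 7.58 ± 0.55 for E16, 7.60 ± 0.58 for P0 and 9.22 ± 0.45 for P16 on the same scale. The differences of 1.64 and 1.62 between P16 and the earlier stages both had p = 0.0286 in the exact permutation test (adjusted p = 0.171), and the first was 1.94 after set adjustment. In both pairs each P16 library was above each E16 and P0 library. The pair of miR-106b-5p and miR-106a-5p rested on 0 to 3 counts of the latter per library and showed no separate stages. No test had an adjusted p under 0.05, and in the cochlea the lowest exact permutation p was 0.0857, for miR-93-5p against miR-20b-5p at P16 vs P0.

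Whether the changes themselves differed between the organs was tested as an interaction of organ and stage over the 545 miRNAs tested in both. At P16 vs E16, 2 of the 7 members tested differed, beside 16.9% of all miRNAs, and they differed in opposite directions. The change of miR-93-5p was 3.41 ± 0.76 log2 units higher in the SOC than in the cochlea (FDR 0.00427), and 1.96 higher after set adjustment (FDR 0.00390, with 23.3% of all miRNAs passing). The change of miR-20b-5p in the SOC minus that in the cochlea was -3.93 ± 1.35 (FDR 0.0459), which did not pass after set adjustment (-3.34, FDR 0.0838), with the replicate number as a block (-3.41, FDR 0.0755) or with library totals (-3.21, FDR 0.0806). No member differed at P0 vs E16 or at P16 vs P0 without the covariate, beside 11.9% and 6.42% of all miRNAs. At an unadjusted p under 0.05 the counts were 1 and 3, and DESeq2 called 0 and 1, beside 117 and 78 of all 545 miRNAs. After set adjustment 31% and 17.1% of all miRNAs differed in these 2 comparisons, and of the members miR-106b-3p at P16 vs P0 (1.34 higher in the SOC, FDR 0.0397).

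The source of each seed family was described from summed counts per library, since these miRNAs have nearly the same length. All mouse miRNAs with a seed were summed where the table held them, which left out only miR-6383 of the miR-17 seed. Most counts with the miR-17 seed came from miR-106b-25, in the cochlea 92.1% ± 3.62 for E16, 95.3% ± 0.93 for P0 and 95.7% ± 1.62 for P16, and 83.5% ± 3.62, 85.1% ± 7.59 and 95.3% ± 2.71 in the SOC. The remainder came chiefly from miR-17-92, 7.48%, 4.48% and 3.34% in the cochlea and 16.4%, 14.8% and 4.68% in the SOC. The share of miR-106a-363 did not pass 1.58% in any cochlear library or 0.126% in any SOC library. In the SOC it was on average 0.0841% ± 0.0342 at E16, 0.0382% ± 0.0308 at P0 and 0.000942% at P16, where a single read was counted over 3 libraries.

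Among counts with the miR-92 seed, miR-25-3p shared the family with miR-92b-3p, which comes from neither paralog cluster. In the cochlea miR-25-3p made up 80.9% ± 0.76 for E16 (n = 2), 43.9% ± 3.97 for P0 (n = 4) and 69.0% ± 15.6 for P16 (n = 4), and miR-92b-3p made up 17.5%, 53.6% and 28.6%. miR-25-3p was thus the larger of the pair at E16 and the smaller on average at P0. In the SOC the share followed the library sets. miR-25-3p took 91.7%, 92.1% and 93.9% in the 3 libraries of set C and 19.2% to 60.6% in the other 8. By stage its mean was 47.1% ± 14.2, 46.3% ± 31.2 and 68.3% ± 42.5 in the SOC. miR-92a-3p, encoded in both miR-17-92 and miR-106a-363, made up 1.53%, 2.52% and 2.26% in the cochlea and 0.0379%, 0.0243% and 0.0234% in the SOC. How reads from its 2 loci were assigned is not given in the sources used here, so all shares of this family are uncertain. miR-363-3p made up 0.243%, 0.268% and 0.107% on average in the SOC at the 3 stages and at most 0.0281% in a cochlear library. In the miR-18 seed family miR-18b-5p of miR-106a-363 gave 11.2% ± 3.17, 11.3% ± 3.94 and 2.81% ± 1.78 of the counts in the SOC, the rest being miR-18a-5p.

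**Figure D5:**
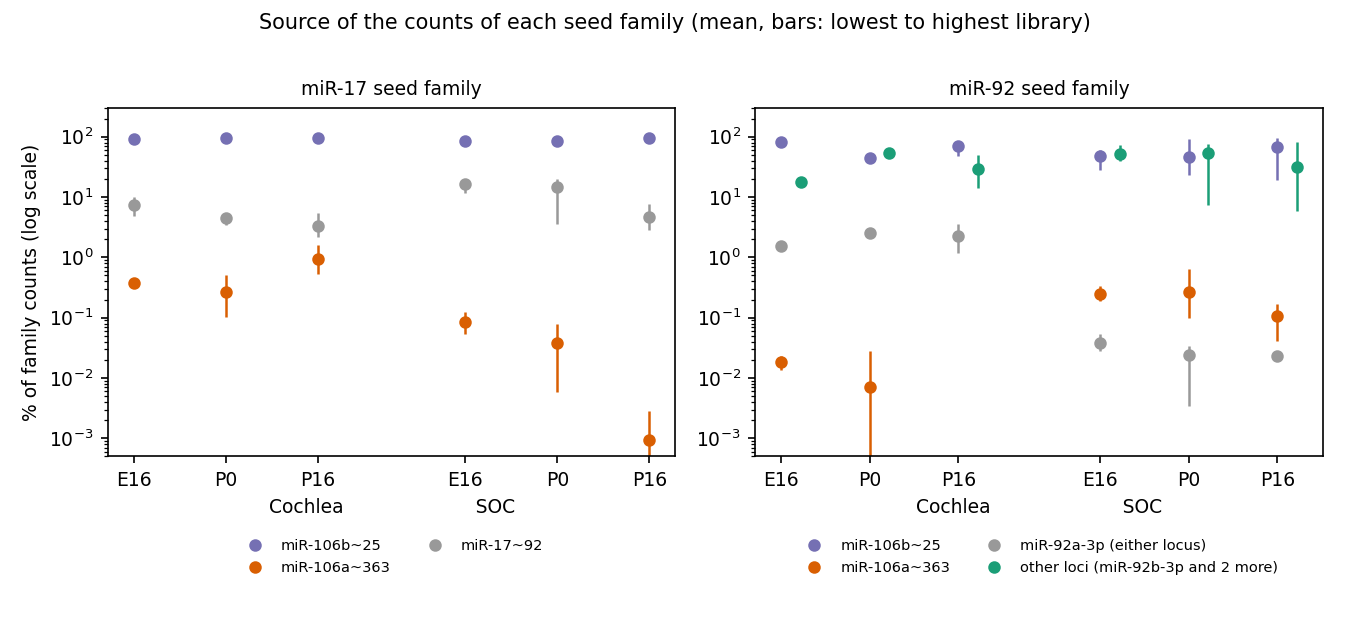
Share of the counts of the miR-17 seed and miR-92 seed families that came from each cluster (percent, log axis), with points at the mean of each stage and organ and bars from the lowest to the highest library (other loci are drawn slightly to the right, and a bar that meets the lower edge runs to 0). miR-106b-25 supplied at least 83.5% of the miR-17 seed family on average at every stage and 43.9% to 80.9% of the miR-92 seed family, where other loci (chiefly miR-92b-3p) gave most of the rest. The share of miR-106a-363 in the miR-17 seed family was lowest in the SOC at P16, and its share in the miR-92 seed family is not drawn for the cochlea at P16, where it was 0.

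The 2 arms of a hairpin were counted in different proportions in the 2 organs. The 5p arm took 8.64% ± 3.74 (n = 2), 1.70% ± 1.44 (n = 4) and 5.87% ± 6.02 (n = 4) of the Mir106b counts in the cochlea, by stage in order of age. In the SOC it took 46.1% ± 5.28 at E16 (n = 4), 49.1% ± 19.3 at P0 (n = 4) and 30.8% to 58.7% over the 3 libraries of P16. For Mir93 the 5p arm took 95.6%, 90.2% and 90.1% in the cochlea and 99.9% at each SOC stage. For Mir363 at E16, 27 of 40 cochlear counts were of the 5p arm (67.3% ± 5.85 per library, n = 2), against 4.82% ± 1.77 (n = 4) in the SOC. Organ and kit cannot be told apart for these shares.

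The third paralog, miR-17-92, was represented by 10 mature miRNAs, of which all were tested in the cochlea and 8 in the SOC. In the cochlea 6 were lower at P0 vs E16, 10 at P16 vs E16 and 3 at P16 vs P0, and none was higher. The median log2 fold changes were -2.31, -4.60 and -1.37 (-3.87 in place of -4.60 with the 2 miRNAs at 0 set to a floor of 3 counts), against 0, -0.09 and 0.05 over all miRNAs. miR-20a-5p, its miR-17 family member with the highest summed counts in both organs, had 372 and 1014 counts at E16, 23 to 60 at P0 and 1 to 18 at P16 in the cochlea. In the SOC 1, 7 and 3 were lower in the same order, beside 4.18%, 20% and 8.07% of all miRNAs, and none was higher. The medians were -0.60, -1.79 and -1.01 against 0.17, 0.08 and -0.15. After set adjustment 5, 7 and 5 of the 8 were lower, beside 14%, 27.4% and 23.3% of all miRNAs. The medians were then -0.79, -1.88 and -1.35 against 0.043, -0.17 and -0.14 over all miRNAs. Of 6 further products of the 2 clusters (miR-25-5p, miR-106a-3p, miR-18b-3p, miR-20b-3p, miR-363-5p and miR-92a-2-5p), 4 were tested in the cochlea and none was DE with edgeR, with 2, 1 and 1 at an unadjusted p under 0.05 in the 3 comparisons. Of the 3 tested in the SOC, miR-18b-3p fell by 4.57 (FDR 0.00399) and miR-363-5p fell by 2.01 (FDR 0.0275) from E16 to P16, with -3.23 (FDR 0.00685) and -2.50 (FDR 0.00826) after set adjustment, so both arms of Mir18b and of Mir363 were lower there.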

How the data were processed

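The authors deposited one table of raw read counts per miRNA (1647 miRBase names, 21 libraries). The submitters' processing notes name Bowtie2 2.2.5, DESeq2 and mm10, and the study's methods describe alignment to a miRNA reference; multi-mapped reads are not described in the sources used here. The members, marker lists and most tests were chosen with earlier results of these data known.

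Counts were tested per organ with edgeR 4.0.16 (R 4.3.3), TMM scaling and the quasi-likelihood F test, for miRNAs that passed 1 CPM in 2 or more libraries of any stage (896 in the cochlea, 694 in the SOC), with Benjamini-Hochberg adjustment over all of them. The 9 members were named by rule, and markers by fixed lists. The tests were tried on simulated data first. No libraries were copies of each other. Alternatives were DESeq2 1.42.0, limma 3.58.1, other scalings and filters, SOC counts thinned to 196885 per library, the library sets, a replicate block and leaving out each library. Set covariates without the overlap criterion and analyses without set C were added after the data were seen. Ratios were tested with scipy 1.17.1. At these totals 1 count was worth 2.24 to 8.04 CPM in the cochlea and 0.0554 to 0.120 CPM in the SOC, and intervals and floors cover counting error only. Sequences and positions came from RefSeq and the GRCm38.p6 annotation.

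Replicate numbers are shared between stages. Deviations from the stage mean correlated for same-numbered SOC libraries of E16 and P0 (4 of 4 pairs, r = 0.251 to 0.490), and for 0 to 1 pairs elsewhere. Of the 12 other pairs of E16 and P0, 2 were over 0.1. These were the differently numbered pairs of set A, which holds replicates 2 and 3 of both stages (r = 0.409 and 0.255). In set A the number and the set therefore cannot be told apart. The main fit and the permutation tests did not use pairs. A fit with the replicate number as a block was run beside them.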

Additional observations from a re-analysis of the deposited data

Results flagged for a closer look

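In 48 groups of 4 libraries with values that differ, 6 had a library whose gap to the nearest other took up most of the group's range, beyond Dixon's 95% limit, which chance gives in about 1 of 20 groups. In the SOC at P0, replicate 4, the one P0 library of set C, stood above the other 3 for miR-93-5p (7385 CPM), miR-25-3p (24699 CPM) and miR-363-3p (170 CPM, 1464 counts). In the cochlea at P0, replicate 1 was the one library with miR-363-3p (10.7 CPM, 2 counts), and it therefore had the lowest log2 ratio of miR-25-3p to miR-363-3p (10.5). In the cochlea at P16, replicate 4 had the lowest log2 ratio of the clusters (8.05), on 5 counts of miR-106a-363.

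For 2 members the change from E16 to P16 differed between the organs in the interaction test of edgeR, by 3.41 log2 units for miR-93-5p (higher in the SOC, FDR 0.00427) and by -3.93 for miR-20b-5p (lower in the SOC, FDR 0.0459, not passed with the replicate block, library totals or the library set as a covariate). The first rested on 135 to 9714 counts per cochlear library and the second on 0 to 5 counts per P16 library in either organ. Organ and kit cannot be told apart.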

How the results depend on the processing

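Depth limits miR-106a-363 in the cochlea and miR-106a-5p in both organs, where single reads decide values. The number of members called changed as follows. In the cochlea at P0 vs E16, 4 became 2 with DESeq2, 1 with all 21 libraries in a common fit and 2 with limma; at P16 vs E16, 7 became 4 with DESeq2 and 4 with at least 10 counts in every library; at P16 vs P0, 4 became 1 in the common fit. In the SOC at P0 vs E16, 0 became 1 with DESeq2, limma, the set covariate and the replicate block, 6 with the covariate without the criterion on overlap and 3 without set C. At P16 vs E16, 5 became 3 with at least 10 counts, 2 with thinned counts, 2 without set A and 3 to 5 with single libraries left out. At P16 vs P0, 2 became 0 with at least 10 counts, in set B alone (where P0 and P16 have 1 library each) and without set A, 1 with thinned counts, 5 with the covariate without the criterion on overlap, and 1 to 3 with single libraries left out. The number with an interaction changed at P0 vs E16 from 0 to 2 with library totals (miR-25-3p and miR-93-5p). At P16 vs E16 it went from 2 to 1 with the set covariate, and to 1 with thinned counts, where miR-20b-5p was not tested. It was 3 with DESeq2, which added miR-93-3p. With library totals it was also 3, as miR-93-3p (edgeR FDR 0.0128) and miR-25-3p (FDR 0.0306) were added and miR-20b-5p was lost. At P16 vs P0 it went from 0 to 1 with DESeq2 or the covariate and 2 with the replicate block. Over all 545 miRNAs the 65 interactions at P0 vs E16 became 143 with library totals. The 92 at P16 vs E16 became 127 with the set covariate, 138 with DESeq2, 129 with library totals and 63 of 498 with thinned counts. The 35 at P16 vs P0 became 78 with DESeq2, 93 with the covariate and 70 with the replicate block. The causes were not tested.

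The change of the log2 cluster ratio became -0.51 (cochlea, P0 vs E16) and -1.92 (P16 vs E16) with 5 counts added in place of 0.5. With the miR-17 seed members alone it was -1.47 for cochlea P16 vs E16, and 1.53, 5.40 and 3.87 for the SOC (P0 against E16, P16 against E16 and P16 against P0 in turn). With thinned counts the last 2 were 2.72 and 2.55.

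The following log2 changes turned sign, none of them a call by stage alone. Cochlea, P0 vs E16: miR-106b-3p -0.051 (at least 10 counts) and -0.34 (library totals), miR-93-3p 0.036 (limma). Cochlea, P16 vs P0: miR-20b-5p -0.044 (limma) and -0.53 to 0.59 with single libraries left out, miR-106b-5p -1.09 to 0.17. SOC, P0 vs E16: miR-93-5p 0.016 (common fit), 0.090 (totals), 0.48 (without set A) and -0.78 to 0.22 (libraries left out), miR-93-3p 0.082 (totals), 0.41 (thinned), 0.28 (without set A) and -0.75 to 0.35, miR-25-3p 0.038 (common fit), 0.036 (totals), 0.64 (without set A) and -1.22 to 0.29, miR-18b-5p 0.13 (without set A) and -0.84 to 0.21, and miR-363-3p -0.070 (at least 10 counts), -1.17 (covariate), -0.49 (limma), -0.039 (no filter), -0.70 (replicate block), -1.35 (set B), -1.38 (without set C) and -1.38 to 0.47. SOC, P16 vs E16: miR-93-5p -1.24 (covariate), -0.96 (set B), -1.03 (without set C) and -0.25 to 0.55, miR-93-3p -0.78 (covariate) and -0.26 (set B). SOC, P16 vs P0: miR-93-5p -0.48 (covariate), -0.15 (set B), -0.46 (without set A), -0.25 (without set C) and -0.13 to 0.96, miR-93-3p -0.12 (covariate) and -0.22 (without set A), miR-25-3p 0.018 (replicate block) and -1.03 to 0.57. Interactions that turned sign were miR-93-3p at P0 vs E16, -0.022 (covariate) and -0.027 (replicate block), miR-106b-3p, 0.32 (covariate) and 0.66 (totals), miR-106b-5p -0.16 (covariate), miR-25-3p -0.017 (covariate) and miR-363-3p -0.62 (thinned) at P16 vs E16, and miR-25-3p -0.50 (covariate) at P16 vs P0. miR-363-3p was not followed at P16 vs P0, where both cochlear groups were at or under the floor.

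With the replicate number as a block, the calls of miR-20b-5p in the SOC at P0 vs E16 (-2.02, FDR 0.0489) and of miR-363-3p in the cochlea at P16 vs E16 changed, and no other call within an organ did. Among interactions the block lost miR-20b-5p at P16 vs E16 (FDR 0.0755) and called miR-93-3p there (FDR 0.0458) and miR-93-3p (FDR 0.0462) and miR-20b-5p (FDR 0.0271) at P16 vs P0.

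Among all 896 miRNAs tested, the calls in the cochlea went from 219, 265 and 94 to 110, 176 and 57 in the common fit. With at least 10 counts in every library they were 90, 106 and 52, of only 173 tested. With single libraries left out they ran from 112 to 255 and from 167 to 282 for the first 2 comparisons. In the SOC the 46 at P0 vs E16 became 84 with DESeq2, 96 with the covariate, 203 with the covariate and no criterion on overlap, 98 without set C, 18 with thinned counts and 0 in set B alone or without set A, and 23 to 60 with libraries left out. The 286 at P16 vs E16 became 189 with at least 10 counts, 118 in set B alone, 129 with thinned counts and 104 without set A. The 112 at P16 vs P0 became 285 with the covariate and no criterion on overlap, 35 with thinned counts, 15 without set A, 0 in set B alone and 248 without P0 replicate 4, the highest of 66 to 248.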

Other observations

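The miRNAs outside the 2 clusters whose level was most like that of each cluster sum were named as a description, by Pearson's r of log2 CPM over the libraries of an organ, which share depth and stage. Over 10 cochlear libraries and 239 miRNAs these were miR-542-3p (0.98), miR-130a-3p (0.98) and miR-708-5p (0.97) for miR-106b-25, and miR-872-5p (0.89), miR-194-5p (0.88) and miR-19b-3p (0.85) for miR-106a-363. miR-19b-3p is also made from the miR-106a-363 transcript. The cochlear sum of miR-106a-363 held 40 to 48 counts per library at E16, 1 to 6 at P0 and 1 to 5 at P16. Its r values in the cochlea therefore rest on few counts after E16. Over 11 SOC libraries and 171 miRNAs they were miR-181a-2-3p (0.89), miR-673-5p (0.88) and miR-210-3p (0.88) for miR-106b-25, and miR-449a-5p (0.92), miR-431-5p (0.91) and miR-210-3p (0.91) for miR-106a-363. The SOC values were not adjusted for the library set, which enters them as well.

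miR-92a-3p and miR-19b-3p are each encoded in both miR-106a-363 and miR-17-92, and miR-92a-3p had fewer counts in the deeper SOC libraries than in the cochlea at E16. miR-92a-3p had 436 and 717 counts in the cochlea at E16 and 58 to 122 in the SOC, and miR-19b-3p had 0 to 30 in the SOC. By contrast miR-20a-5p, from miR-17-92 alone, had 372 and 1014 counts in the cochlea and 4346 to 12285 in the SOC. The cause was not tested.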
